A study of Mus musculus with 6 samples.

Results

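The mitochondrial ribosomal protein genes were chosen from the mouse RefSeq annotation by name, as protein-coding genes whose symbol is Mrpl or Mrps followed by digits and, where present, a letter. The rule found 78 genes of 21887 nuclear protein-coding genes, of which 49 carry the large subunit name Mrpl and 29 the small subunit name Mrps. The rule uses names alone, although the family was chosen with earlier results of these data known. Accessible DNA was mapped by ATAC-seq, an assay in which a transposase inserts sequencing adapters where chromatin is open, in a line of atrioventricular cushion mesenchymal (AVM) cells, the embryonic heart tissue that gives rise to valves and septa. The line is immortalised and its strain label is H- 2Kb-tsA58 transgenic, a transgene that carries a temperature-sensitive large T antigen, and cells of both groups carry it and were at passage 6. High-glucose cells spent 48 h in 25 mM glucose (3 libraries) and normal-glucose cells 48 h in 5.5 mM glucose (3 libraries), the concentration in which the line is maintained. The series asks how the glucose of maternal diabetes bears on congenital heart disease.

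Mitochondrial ribosomes translate the few proteins encoded by mitochondrial DNA, all of them subunits of the respiratory chain and the ATP synthase. Their RNA comes from mitochondrial DNA, but every protein of the particle is encoded in the nucleus, made in the cytosol and imported. Nuclear respiratory factor 1 (NRF1), the ETS factor GABP and YY1 are the classical regulators of nuclear genes for mitochondria. The Mrpl and Mrps names follow the history of each protein and not always its place, since Mrps18a and Mrps30 products sit in the large subunit and Mrps36 is now known as a subunit of the 2-oxoglutarate dehydrogenase complex.

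The peak lists of replicates 1, 2 and 3 had 22156, 25020 and 22598 entries in high glucose and 24263, 66 and 40350 in normal glucose. The 66 peaks of normal-glucose replicate 2 lay at none of the 78 genes, and that list, under the minimum of 1000 peaks, entered no comparison, while normal-glucose replicate 3 had the longest list. Among markers of cushion mesenchyme 9 of 10 had a peak near a gene end (within 1 kb) in each of the 5 remaining libraries, and Twist1 had one in 4. The same held for 0 of 6 endothelial markers, for 0 of 6 heart muscle markers and for 1 of 6 blood markers, Spi1, while the endothelial receptor gene Kdr had a peak in 4 libraries. Nothing in the labels says that libraries of a group came from separate cultures, so the spread between them may be technical. Depth in reads is unknown, and longer lists reach weaker sites.

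The promoter sequences below are those on which the results turn, made of the 250 bases before the annotated start and the 50 from the start base on, as given by RefSeq on GRCm38.p6, whose coordinates are those of mm10. Each is written 5′ to 3′ on the strand of its gene, and capitals mark the letters GCATGCGC (named here for NRF1), CCGGAAG (ETS) and ATGGCGG (YY1) on either strand. Mrpl17 had the strongest peak of the family in every library, and its promoter is chr7:105811038-105811337 on the minus strand. Mrpl50 (chr4:49521034-49521333, minus) shows the YY1 letters shortly after the start, and Mrpl32 (chr13:14612988-14613287, minus) holds the most NRF1 matches of the family. Mrpl43 (chr19:45006393-45006692, minus) holds the ETS letters at 2 places before its start. Mrps11 (chr7:78782881-78783180, plus) also spans the start of Mrpl46, which runs the other way. Mrpl33 (chr5:31613701-31614000, plus) and Mrps22 (chr9:98601630-98601929, minus) had promoter peaks in both normal-glucose libraries and in no high-glucose library.
Mrpl17: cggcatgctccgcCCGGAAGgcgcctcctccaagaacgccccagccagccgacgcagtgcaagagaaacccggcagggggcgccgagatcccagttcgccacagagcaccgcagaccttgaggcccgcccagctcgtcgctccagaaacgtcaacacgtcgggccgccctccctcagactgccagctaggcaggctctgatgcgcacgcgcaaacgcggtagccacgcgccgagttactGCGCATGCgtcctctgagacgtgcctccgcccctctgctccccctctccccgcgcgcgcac
Mrpl50: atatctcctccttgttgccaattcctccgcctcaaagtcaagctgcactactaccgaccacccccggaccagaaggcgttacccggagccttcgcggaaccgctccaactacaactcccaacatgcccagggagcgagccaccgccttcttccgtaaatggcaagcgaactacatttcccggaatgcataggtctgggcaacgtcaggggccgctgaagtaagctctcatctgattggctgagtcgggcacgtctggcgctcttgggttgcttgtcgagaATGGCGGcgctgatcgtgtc
Mrpl32: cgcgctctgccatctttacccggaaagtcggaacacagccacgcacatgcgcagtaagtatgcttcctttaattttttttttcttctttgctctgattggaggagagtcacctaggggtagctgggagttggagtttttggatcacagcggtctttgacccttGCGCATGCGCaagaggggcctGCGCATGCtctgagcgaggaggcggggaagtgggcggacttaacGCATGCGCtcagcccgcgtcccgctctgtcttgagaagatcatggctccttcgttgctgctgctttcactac
Mrpl43: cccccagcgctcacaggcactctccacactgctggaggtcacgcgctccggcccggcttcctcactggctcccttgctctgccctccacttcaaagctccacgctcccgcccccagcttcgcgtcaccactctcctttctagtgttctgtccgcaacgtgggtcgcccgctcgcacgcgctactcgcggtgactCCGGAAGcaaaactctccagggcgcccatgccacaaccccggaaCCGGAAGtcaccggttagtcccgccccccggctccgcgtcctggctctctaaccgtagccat
Mrps11: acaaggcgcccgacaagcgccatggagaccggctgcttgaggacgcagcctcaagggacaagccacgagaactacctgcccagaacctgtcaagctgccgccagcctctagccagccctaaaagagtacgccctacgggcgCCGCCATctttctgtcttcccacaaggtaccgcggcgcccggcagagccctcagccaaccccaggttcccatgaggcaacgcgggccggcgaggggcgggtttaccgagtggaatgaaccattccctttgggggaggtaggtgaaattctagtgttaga
Mrpl33: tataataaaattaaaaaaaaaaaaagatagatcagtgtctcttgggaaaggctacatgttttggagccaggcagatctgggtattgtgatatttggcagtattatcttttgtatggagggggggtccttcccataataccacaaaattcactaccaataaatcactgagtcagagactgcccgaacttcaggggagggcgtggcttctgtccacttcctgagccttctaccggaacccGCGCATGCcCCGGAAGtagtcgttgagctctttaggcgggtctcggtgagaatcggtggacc
Mrps22: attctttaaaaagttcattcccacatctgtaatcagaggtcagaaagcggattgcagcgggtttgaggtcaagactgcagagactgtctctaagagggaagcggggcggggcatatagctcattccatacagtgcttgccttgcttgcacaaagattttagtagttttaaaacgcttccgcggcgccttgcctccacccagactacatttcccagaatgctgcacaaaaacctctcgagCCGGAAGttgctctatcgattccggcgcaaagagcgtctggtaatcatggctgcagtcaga
Counting the start base as 0, the NRF1 letters of Mrpl17 lay at -11 to -4 and its ETS letters at -237 to -231. In Mrpl32 the NRF1 letters occurred 4 times between -87 and -15, and the 2 matches farthest upstream overlapped on opposite strands. The ETS letters of Mrpl43 lay at -56 to -50 and at -12 to -6, and the YY1 letters of Mrpl50 at 30 to 36. Mrpl33 held NRF1 letters at -12 to -5 beside ETS letters at -3 to 3, and Mrps22 held ETS letters at -11 to -5. A match is a stretch of letters and was not tested as a binding site.

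At the 1 kb window and with the lists as deposited, 47 of the 78 mitochondrial ribosomal protein genes were marked by open chromatin in each of the 5 libraries that entered. A gene was counted as having a gene-end peak when at least 1 deposited peak overlapped, by 1 bp or more, a window of 1 kb either side of either end of the gene. Such a peak was found in all 5 libraries for 47 of the 78 genes (60.3%), against 35.7% of all protein-coding genes. The count fell to 30 (38.5%, against 27.9% of all genes) when only peaks of −log10 q of at least 5 were kept, and to 31 (39.7%, against 26.3%) with windows of 100 bp. With each list reduced to its strongest 22149 peaks it was 41 (52.6%), and the share over all genes was not worked out there. As deposited, another 26 of the 78 had one in 1 to 4 libraries, against 3566 of the 21887 protein-coding genes. A further 5 (6.41%) had none in any library, against 48.0% of all protein-coding genes. The subunits differed little in these counts, with 29 of 49 large subunit genes (59.2%) and 18 of 29 small subunit genes (62.1%) present in all 5 libraries. The number of the 78 genes with a gene-end peak was 58, 59 and 62 in the high-glucose libraries and 59 and 71 in the normal-glucose libraries, with normal-glucose replicate 3, the longest list, standing apart at 71. That library was also highest over all protein-coding genes, whose shares were 41.6%, 44.5% and 43.0% in high glucose and 42.4% and 49.8% in normal glucose. In bulk chromatin, a site open in fewer cells and a site less open in each cell cannot be told apart.

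**Figure D1:**
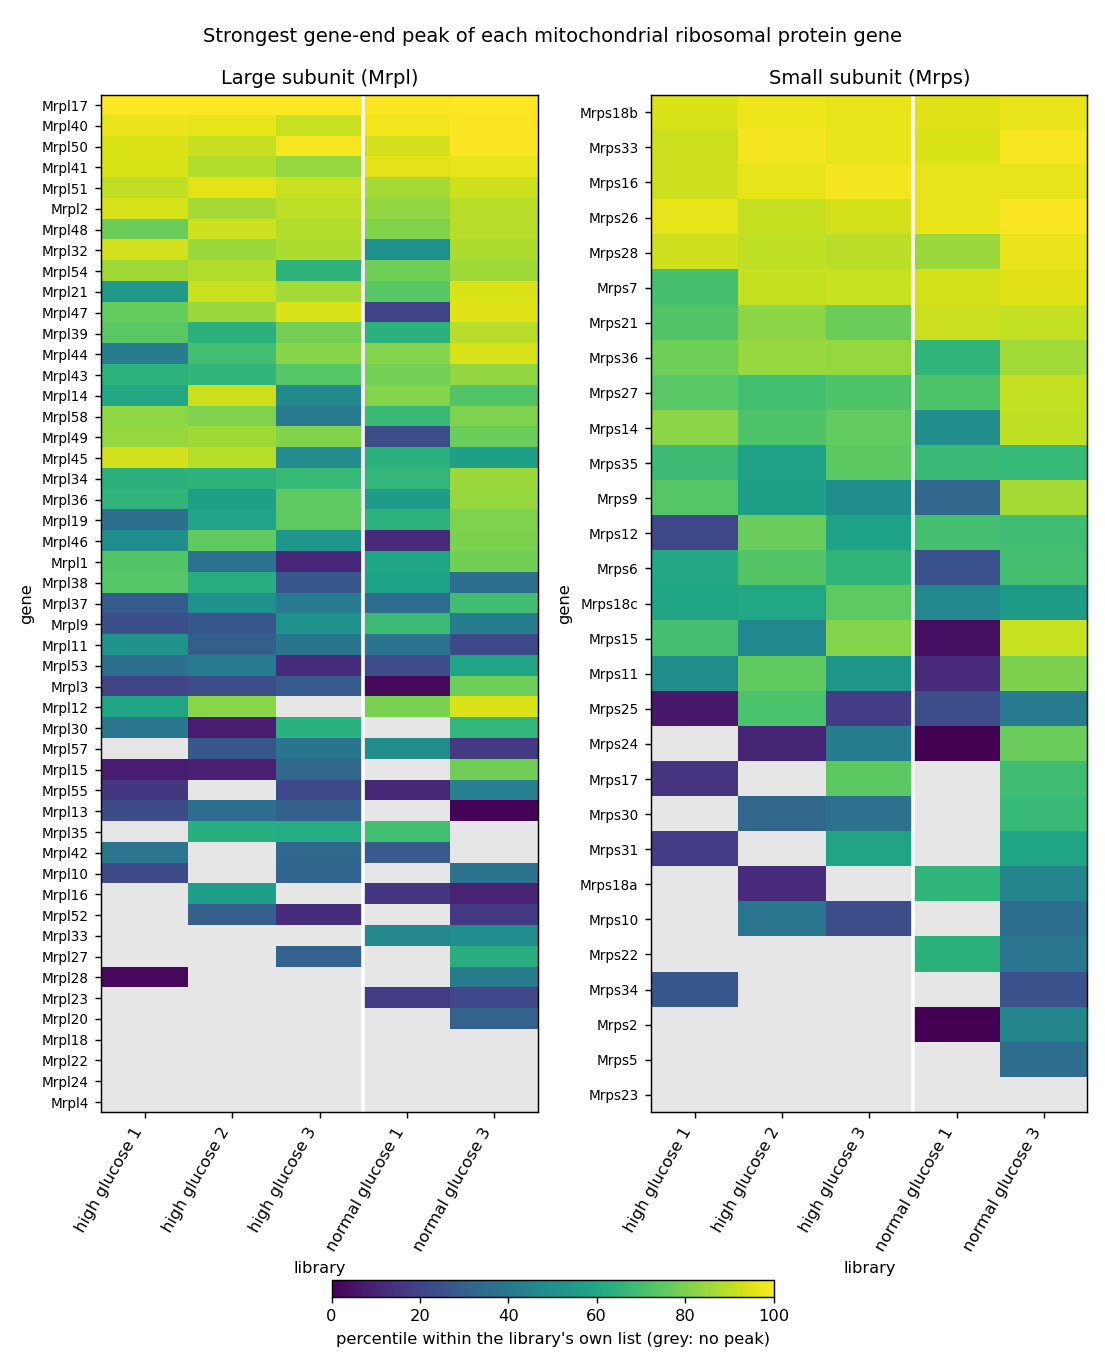
The strongest gene-end peak of each gene in 5 libraries, as its percentile by the authors' −log10 p within that library's own list (colour, 0 to 100), with large subunit genes at left and small subunit genes at right. Rows are ordered by the number of libraries with a peak and then by mean percentile, grey marks no peak, and Mrpl17 is at 99.5 or higher in all 5 libraries.

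Strength was read as the percentile of a gene's strongest gene-end peak by the authors' −log10 p within each library's own list. The lists differ in length, so a difference in percentile between libraries cannot be read as a change in openness. Peak position, fold enrichment and −log10 p are the authors' values. Among large subunit genes Mrpl17, on the minus strand of chromosome 7, stood highest, with percentiles of 99.8, 99.9 and 99.7 in high glucose and 99.5 and 99.8 in normal glucose. Its fold enrichment was 23.2, 27.0 and 22.4 in the high-glucose libraries and 20.3 and 22.4 in the normal-glucose libraries, and its summit stayed between positions -145 and -139 from the start. All 5 libraries thus placed Mrpl17 within the top 1% of its list. The percentiles of Mrpl40 were 97.1, 96.2 and 91.8 in high glucose and 97.9 and 99.4 in normal glucose. Mrpl40, which lies next to the histone chaperone gene Hira and whose human counterpart falls in the region lost in DiGeorge syndrome, was above 90 in every library. The percentiles of Mrpl50 were 94.6, 91.3 and 98.5 in high glucose and 93.4 and 99.4 in normal glucose. For Mrpl41 they were 94.2, 88.3 and 84.3 in high glucose and 95.9 and 96.1 in normal glucose, and for Mrpl51 90.5, 95.7 and 91.8 in high glucose and 86.6 and 92.3 in normal glucose. The peak of Mrpl51 covered no base of its 300-base promoter in any library, and the neighbouring condensin gene Ncapd2 starts 614 bp away on the other strand.

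Among small subunit genes 5 were in the 10 highest of the family. Mrps16, whose human counterpart is mutated in a combined respiratory chain deficiency, had percentiles of 92.2, 96.2 and 98.1 in high glucose and 96.2 and 96.3 in normal glucose. The percentiles of Mrps33 were 92.2, 98.3 and 96.3 in high glucose and 94.3 and 98.6 in normal glucose, and those of Mrps26 were 96.6, 91.4 and 93.7 in high glucose and 96.4 and 99.3 in normal glucose. These 3 genes were above 90 in each of the 5 libraries. Mrps28 had percentiles of 92.6, 90.6 and 89.5 in high glucose and 85.1 and 96.7 in normal glucose. Mrps18b reached 94.5, 97.6 and 96.6 in high glucose and 95.7 and 96.7 in normal glucose, but its strongest peak had its summit at -392 to -352 from the start, towards the start of Ppp1r10, a regulatory subunit gene of protein phosphatase 1, 756 bp away. A second, weaker peak of Mrps18b had its summit 3 to 55 bases after the start in all 5 libraries, at percentiles of 73.2, 56.4 and 23.1 in high glucose and 59.4 and 74.0 in normal glucose. Its paralogue Mrps18c was also present in all 5 libraries, at 58.6, 59.4 and 75.1 in high glucose and 46.8 and 54.5 in normal glucose, whereas Mrps18a had a gene-end peak in 3 of the 5.

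The family as a whole did not sit among the strongest peaks of these cells. Over the 47 genes present in all 5 libraries, the median percentile in the weakest library was 50.4, against 67.0 over all protein-coding genes present in all 5. Library by library, the median over the genes with a peak was 67.0, 71.5 and 66.3 in high glucose and 64.6 and 77.9 in normal glucose, against 74.2, 76.2 and 74.8 in high glucose and 73.6 and 81.1 in normal glucose over all genes with a peak. The lowest gene of the 47 was Mrpl3, with percentiles of 21.0, 24.1 and 28.2 in high glucose and 2.72 and 77.9 in normal glucose. Mrps15 had 70.2, 46.8 and 81.5 in high glucose and 3.89 and 91.7 in normal glucose, and Mrps25 had 6.86, 71.5 and 18.0 in high glucose and 23.5 and 41.3 in normal glucose. In both genes a peak near the bottom of 1 list stood beside a peak above the 70th percentile of another, so being present in all 5 libraries did not mean a strong peak in each. For Mrpl1 the percentiles were 73.2, 38.2 and 11.2 in high glucose and 58.6 and 78.7 in normal glucose.

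Genes with known roles in the particle spread over the whole range. Mrpl44, an RNase III family protein of the large subunit, had percentiles of 42.0, 69.7 and 81.6 in high glucose and 81.6 and 94.0 in normal glucose. Mrpl11, at the base of the stalk where translation factors bind, had 51.8, 30.4 and 39.0 in high glucose and 38.0 and 22.0 in normal glucose. Mrps12, of the decoding centre, had 21.6, 77.1 and 58.0 in high glucose and 70.4 and 69.3 in normal glucose. The highest of these 3 in a single library was Mrpl44 in normal-glucose replicate 3, and Mrpl11 stayed under the 52nd percentile throughout. Mrpl58, a peptidyl-tRNA hydrolase that frees stalled ribosomes, had 82.8, 80.6 and 41.3 in high glucose and 67.6 and 80.6 in normal glucose. It also had several gene-end peaks, namely 3, 2 and 2 in the high-glucose libraries and 2 and 4 in the normal-glucose libraries. Mrpl45, which anchors the ribosome to the inner membrane, had 93.5, 89.1 and 48.1 in high glucose and 63.9 and 56.5 in normal glucose. For Mrpl32, whose precursor is cleaved by the m-AAA protease before it joins the ribosome, the percentiles were 93.2, 85.0 and 87.7 in high glucose and 50.4 and 87.7 in normal glucose. Mrpl32, like Mrps15 and Mrpl47, had its lowest percentile in normal-glucose replicate 1. The genes Mrps7, Mrps9 and Mrps14, homologues of bacterial small subunit proteins, were present in all 5 libraries with lowest percentiles of 70.8, 32.9 and 49.6.

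The annotated start of a gene, which RefSeq's promoter table gave for 69 of the 78 genes, gave counts close to those at gene ends. A peak lay within 1 kb of a start in all 5 libraries for 41 of 69 genes (59.4%), against 38.6% of the 17492 genes with a start in the table. A peak covered part of the 300-base promoter in all 5 libraries for 37 of 69 (53.6%), against 33.3% of the 17492. By library, 51, 54 and 56 of the 69 starts had a peak in high glucose and 52 and 65 in normal glucose. These were 73.9%, 78.3% and 81.2% in high glucose and 75.4% and 94.2% in normal glucose. Over all genes with a start the shares were 44.3%, 47.0% and 46.0% in high glucose and 44.9% and 52.1% in normal glucose. In 39 genes both measures found a peak in all 5 libraries. Mrpl3 had its gene-end peak at the far end of the gene, with the summit 24017, 23955 and 23963 bases downstream in high glucose and 24003 and 23967 in normal glucose, and no start peak in any library. Mrpl2 and Mrpl36 had start peaks in 2 libraries each but gene-end peaks in all 5. The strongest gene-end peaks of Mrpl36 had the same percentile in each library as those of its neighbour Ndufs6. As Ndufs6 had a start peak in all 5 libraries, these peaks cannot be assigned to Mrpl36 alone.

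None of the 5 genes without a gene-end peak lacked peaks altogether. Mrpl18 has its tabulated start 1696 bp inside the annotated gene, and a peak covered that start in all 5 libraries, at percentiles of 95.0, 97.3 and 97.7 in high glucose and 97.6 and 99.0 in normal glucose. Its summit lay at -113 to -80 from the start, and Tcp1, a subunit gene of the cytosolic chaperonin, starts 238 bp away in the other direction. Mrpl18 would therefore rank with the strongest genes of the family by its start. Mrps23, with a start 10282 bp inside the gene, had a start peak in the 3 high-glucose libraries and in normal-glucose replicate 3. Mrpl22 had a start peak in high-glucose replicate 2 and normal-glucose replicate 3, and Mrpl24 in high-glucose replicate 1 and normal-glucose replicate 3. Mrpl4 had no start in the table and had a peak within its body in all 5 libraries.

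Many mitochondrial ribosomal protein genes share a promoter region with another gene. Of the 69 genes with a start, 24 (34.8%) had the start of another gene within 1 kb running the opposite way, against 8.48% of all 17492 genes. Of these 24 genes 19 (79.2%) had a start peak in all 5 libraries, against 22 of the 45 others (48.9%), and over all genes the shares were 77.8% and 34.9%. Among the partners were further genes for mitochondria, namely Sars2, the mitochondrial seryl-tRNA synthetase gene, 147 bp from Mrps12, Twnk, the mitochondrial DNA helicase gene, 116 bp from Mrpl43, Ndufb5, a complex I subunit gene, 308 bp from Mrpl47, and Ptcd2, 108 bp from Mrps27. Other partners served the cytosol, such as Psma2, a proteasome subunit gene, 205 bp from Mrpl32, and Fau, which encodes a cytosolic ribosomal protein, 192 bp from Mrpl49. A peak between such starts cannot be assigned to either gene alone.

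The pair Mrpl46 and Mrps11 unites both subunits in 1 promoter. Their starts lie 42 bp apart at positions 78783089 and 78783131 of chromosome 7, and a single peak lay at these starts in all 5 libraries. That peak was 132, 168 and 92 bases wide in high glucose and 99 and 126 in normal glucose, with percentiles of 49.7, 75.6 and 52.8 in high glucose and 12.1 and 80.2 in normal glucose. Its summit lay at -47, -39 and -56 from the Mrps11 start in high glucose and at -78 and -38 in normal glucose. The YY1 letters in the printed sequence lay at -109 to -103 from the Mrps11 start.

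Peaks at the starts of these genes sat mostly just upstream. Over 278 pairs of gene and library with a start peak, the summit of the strongest peak lay at a median of -47 bases from the start, with an interquartile range of -111 to 5, and 64.0% lay within 100 bases. For all genes the median was -45 bases and 57.3% lay within 100 bases. Summits were upstream in 72.3% of the pairs, against 68.8% for all genes, and the median width was 192 bases, against 222. The medians were -46, -71 and -33.5 bases in the high-glucose libraries and -61.5 and -31 in the normal-glucose libraries. In the 41 genes with a start peak in all 5 libraries, the summits of a gene spread over a median of 58 bases between libraries, and in 25 of the 41 over at most 100 bases.

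**Figure D2:**
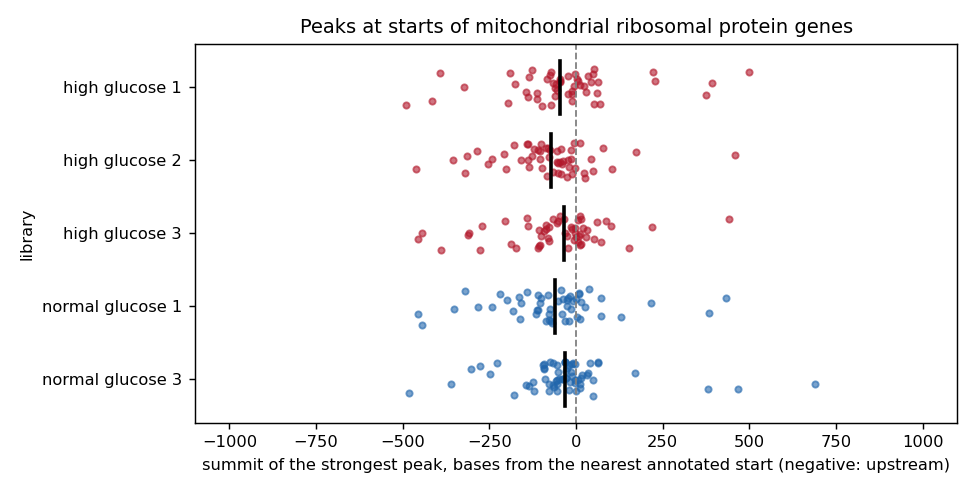
Position of the summit of the strongest start peak, in bases from the nearest annotated start (negative values are upstream), for each mitochondrial ribosomal protein gene with a peak within 1 kb of its start in each of 5 libraries. Each point is 1 gene, points are scattered vertically for legibility, black bars are library medians, which run from -71 to -31 bases, and the dashed line is the start.

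The comparison of the glucose conditions asked whether any of these genes was open in one condition and not in the other. The share of the 78 genes with a gene-end peak was 74.4%, 75.6% and 79.5% in the high-glucose libraries and 75.6% and 91.0% in the normal-glucose libraries, with means of 76.5% ± 2.67 (SD, n = 3) and 83.3% ± 10.9 (SD, n = 2). Normal-glucose replicate 3, the longest list, was the highest, and normal-glucose replicate 1 lay within the high-glucose range. High glucose was lower by 6.84 percentage points, less than the SD of the normal-glucose libraries, and over all genes the means were 43.1% ± 1.46 and 46.1% ± 5.24. High minus normal glucose was 0.855 points without normal-glucose replicate 3 and -14.5 points without normal-glucose replicate 1. When each list was reduced to its strongest 22149 peaks, the shares became 74.4%, 71.8% and 79.5% in high glucose and 70.5% and 69.2% in normal glucose, so that the means of 75.2% ± 3.92 and 69.9% ± 0.907 stood the other way round. All genes then had means of 42.4% ± 0.682 and 41.6% ± 0.821. The 10 splits of 3 against 2 libraries allow no two-sided exact permutation p under 0.1 on the absolute difference, or under 0.2 where the smaller tail is doubled, so no gene was tested.

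**Figure D3:**
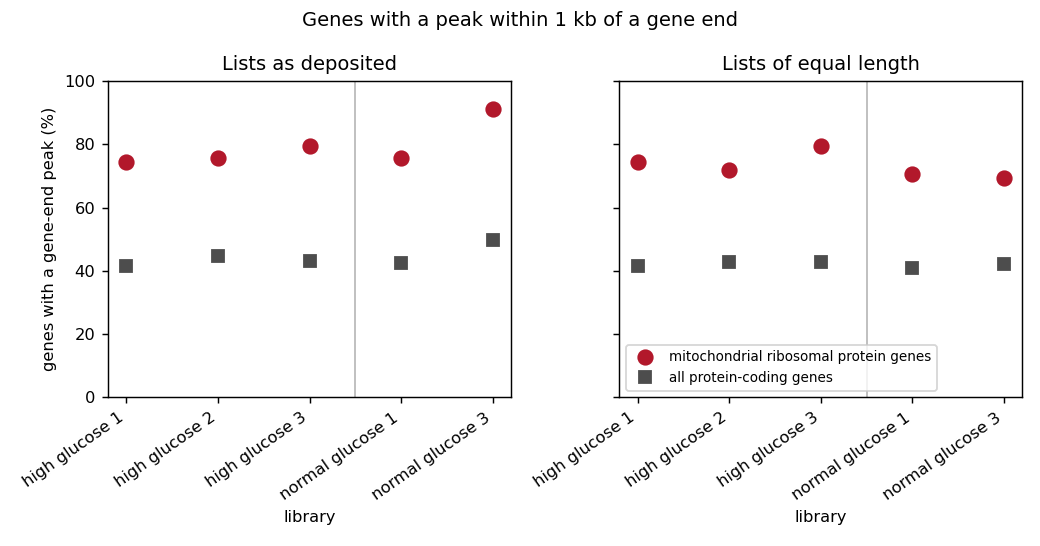
Percent of genes with a gene-end peak in each of 5 libraries for the mitochondrial ribosomal protein genes (circles, 78 genes) and all protein-coding genes (squares, 21887 genes), with lists as deposited at left and reduced to 22149 peaks each at right. With deposited lists normal-glucose replicate 3 is highest at 91.0%, and with equal lists it is lowest at 69.2%.

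No gene of the 78 was marked in all high-glucose libraries while unmarked in both normal-glucose libraries, a pattern that 0.0640% of all protein-coding genes showed. Without normal-glucose replicate 3, which left 1 library for that condition, 3 genes had it (3.85%), Mrpl13, Mrpl15 and Mrpl30, against 1.65% of all protein-coding genes under the same choice of libraries. The reverse pattern, a peak in both normal-glucose libraries and in none of the high-glucose libraries, held for 4 genes (5.13%), against 0.699% of all protein-coding genes. These were Mrpl23, Mrpl33, Mrps2 and Mrps22. With lists of equal length 1 of the 78 genes (1.28%) was left in this pattern, Mrpl33, against 0.210% of all genes, and 1 gene, Mrpl13, had the high-glucose pattern, against 0.484% of all genes. At annotated starts the normal-glucose pattern held for 3 of 69 genes (4.35%), against 0.612% of all genes with a start, and the high-glucose pattern for 0 of 69, against 0.0572%. At starts with lists of equal length the normal-glucose pattern held for 1 of 69 genes (1.45%), again Mrpl33, and for 35 of the 17492 genes with a start.

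Mrpl33, a small protein of the large subunit, had a promoter peak at percentiles of 46.3 and 48.8 in normal-glucose replicates 1 and 3. These peaks, 104 and 108 bases wide, had their summits at -16 and -31 from the start, next to the NRF1 and ETS letters printed above. Fold enrichment at Mrpl33 was 6.01 and 6.52, so these were peaks of middling strength. At Mrps22, whose human counterpart is mutated in a respiratory chain deficiency, the percentiles were 64.3 and 39.1 in normal-glucose replicates 1 and 3, and the summits lay at -18 and -9. The fold enrichment there was 7.08 and 6.09. Both genes also kept a peak in the 2 normal-glucose libraries and none in high glucose when peaks of −log10 q under 5 were left out. Mrpl23 had weaker peaks at percentiles of 17.7 and 21.5, with summits 216 and 380 bases after the start, and those 2 peaks did not overlap the promoter. Mrps2 fitted the pattern only through a peak near the 5′ end of the annotated gene, with summits at -1796 and -1692 from the tabulated start, at percentiles of 0.157 and 45.7. At its tabulated start, 2115 bp inside the gene, Mrps2 had a peak in all 5 libraries, with percentiles of 76.6, 71.6 and 3.90 in high glucose and 21.9 and 68.9 in normal glucose.

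Among the 26 genes with a gene-end peak in some but not all libraries, 11, 12 and 15 had a peak in high-glucose replicates 1, 2 and 3, and 12 and 24 had one in normal-glucose replicates 1 and 3. The same split over all partly marked protein-coding genes was not worked out. Normal-glucose replicate 3, the longest list, was also the highest over all genes, at 49.8%, so its 24 cannot be read as a trait of the family. Mrpl20 and Mrps5 had a peak in normal-glucose replicate 3 alone. Mrpl13, Mrpl15 and Mrpl30 had peaks in the 3 high-glucose libraries and in normal-glucose replicate 3, and they lacked one in normal-glucose replicate 1. Mrpl12, a stalk protein also reported to bind the mitochondrial RNA polymerase, reached the highest percentile of the 26. It had percentiles of 58.8 and 82.1 in high-glucose replicates 1 and 2 and 79.9 and 94.2 in the normal-glucose libraries, but no peak in high-glucose replicate 3. Mrpl10, the stalk protein to which the Mrpl12 product binds, had percentiles of 22.7 and 32.2 in high-glucose replicates 1 and 3 and 37.9 in normal-glucose replicate 3. Mrps34, another gene mutated in human respiratory chain deficiency, had percentiles of 27.3 in high-glucose replicate 1 and 24.8 in normal-glucose replicate 3. Mrpl35 had percentiles of 62.7 and 61.9 in high-glucose replicates 2 and 3 and 69.7 in normal-glucose replicate 1, and lacked a peak in the longest list. Mrpl35 and Mrpl42 were the 2 genes of the 26 without a peak in normal-glucose replicate 3. The other partly present genes divided over several patterns. Mrpl55, Mrpl57 and Mrps24 had a peak in 4 libraries, and Mrpl16, Mrpl52, Mrps10, Mrps17, Mrps30 and Mrps31 had one in 3. Mrpl27 and Mrpl28 had one in 2 libraries, each in 1 high-glucose library and in normal-glucose replicate 3.

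The 69 promoters were searched on both strands for 11 short motifs, and each share was set beside that of all 17492 promoters and of the 5821 promoters covered by a peak in all 5 libraries. The ETS letters CCGGAAG occurred in 24 of the 69 promoters (34.8%), against 21.9% of the promoters with a peak in all 5 libraries and 11.9% of all promoters. The YY1 letters ATGGCGG occurred in 13 (18.8%), against 9.62% and 5.44%. The NRF1 letters GCATGCGC occurred in 8 (11.6%), against 6.85% and 3.61%. At least 1 of these 3 motifs was present in 35 promoters (50.7%), against 34.0% and 18.8%, and at least 2 of them in 9 (13.0%), against 4.28% and 2.13%. Mrpl22 held all 3, while Mrpl17, Mrpl33 and Mrps18b held ETS and NRF1 letters without YY1. Promoters with ETS letters included those of Mrps26, Mrps33, Mrps12 and Mrpl58, and those with NRF1 letters included Mrpl39, Mrpl9 and Mrpl10. In Mrpl9, Mrpl32 and Mrpl39 matches on opposite strands overlapped.

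**Figure D4:**
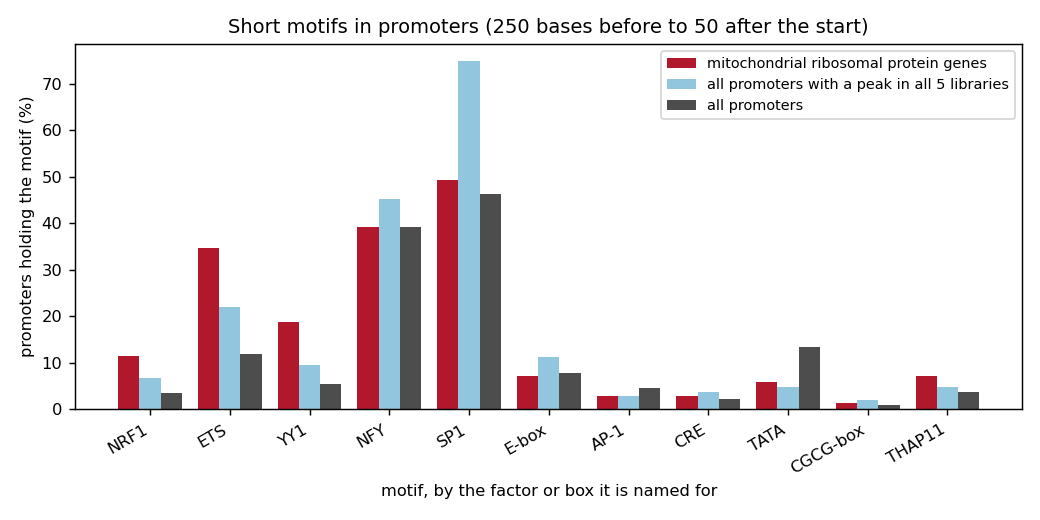
Percent of promoters (the 250 bases before the start and 50 from it on) that hold each of 11 short motifs on either strand, for the mitochondrial ribosomal protein genes (69 promoters), all promoters covered by a peak in all 5 libraries (5821) and all promoters (17492). The ETS bar of the family stands at 34.8% and its SP1 bar at 49.3%, below the 74.8% of promoters with a peak in all 5 libraries.

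The YY1 letters lay mostly after the start. In 11 of the 13 promoters (84.6%) they lay after the start on the gene's own strand, against 40.6% of the 951 promoters that hold them. The motif begins with the letters of a start codon, and whether these matches coincide with the start of translation was not tested. The GC-rich SP1 letters GGGCGG occurred in 49.3% of the family's promoters, against 74.8% of the promoters with a peak in all 5 libraries and 46.3% of all. For the NFY letters CCAAT the shares were 39.1%, 45.3% and 39.2%, and for the E-box CACGTG, a site for MYC and MLX family factors, 7.25%, 11.2% and 7.91%. The TATA letters TATAAA occurred in 5.80%, against 4.78% and 13.3%. The remaining motifs were rare in the family, with 7.25% for THAP11 (ACTACAA), 2.90% for AP-1 (TGACTCA), 2.90% for CRE (TGACGTCA) and 1.45% for the CGCG-box (TCTCGCGAG), against 3.82%, 4.56%, 2.33% and 1.03% of all promoters. The E-box and CRE letters read the same on both strands. The median GC content was 58.3% in the family, 63.3% in promoters with a peak in all 5 libraries and 56.3% in all promoters.

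Within the family, promoters with and without a peak in all 5 libraries held the motifs in shares that differed by motif, and no such difference was tested. The ETS letters occurred in 12 of the 37 promoters covered by a peak in all 5 libraries (32.4%) and in 12 of the 32 others (37.5%). For YY1 the shares were 13.5% and 25.0%, and for NRF1 10.8% and 12.5%. The SP1 letters occurred in 62.2% of the 37 and in 34.4% of the 32. The median GC content of the 37 was 60.7% and that of the 32 was 56.7%.

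Other genes of mitochondrial translation were described from lists by role. Among 5 subunit genes of the mitochondrial ribosome that carry other names, Dap3, a GTP-binding protein of the small subunit, was marked in every library, at percentiles of 84.7, 97.3 and 86.3 in high glucose and 89.5 and 80.1 in normal glucose. The other 4, Aurkaip1, Chchd1, Gadd45gip1 and Ptcd3, had one in 1 to 4 libraries, and Chchd1 had one in normal-glucose replicate 3 alone. Of 28 assembly factor genes 18 were present in all 5 libraries, 7 in some and 3, Fastkd2, Gtpbp10 and Rcc1l, in none, although Rcc1l had a start peak in all 5. The strongest in its weakest library was Tfb1m, the methyltransferase of the small subunit RNA, at 93.6, followed by Mettl17 and Noa1 at 82.0 each and Mettl15 at 80.4. Afg3l2 and Spg7, which encode the m-AAA protease that cleaves the Mrpl32 precursor, were both present in all 5. Of 16 translation factor genes 9 were present in all 5 and 7 in some. In its weakest library the release factor gene Mtrf1l stood highest, at 96.9. Tufm, the elongation factor that brings tRNA to the ribosome, had its lowest percentile, 53.1, in normal-glucose replicate 3. It had 69.2 or higher in the other libraries.

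**Figure D5:**
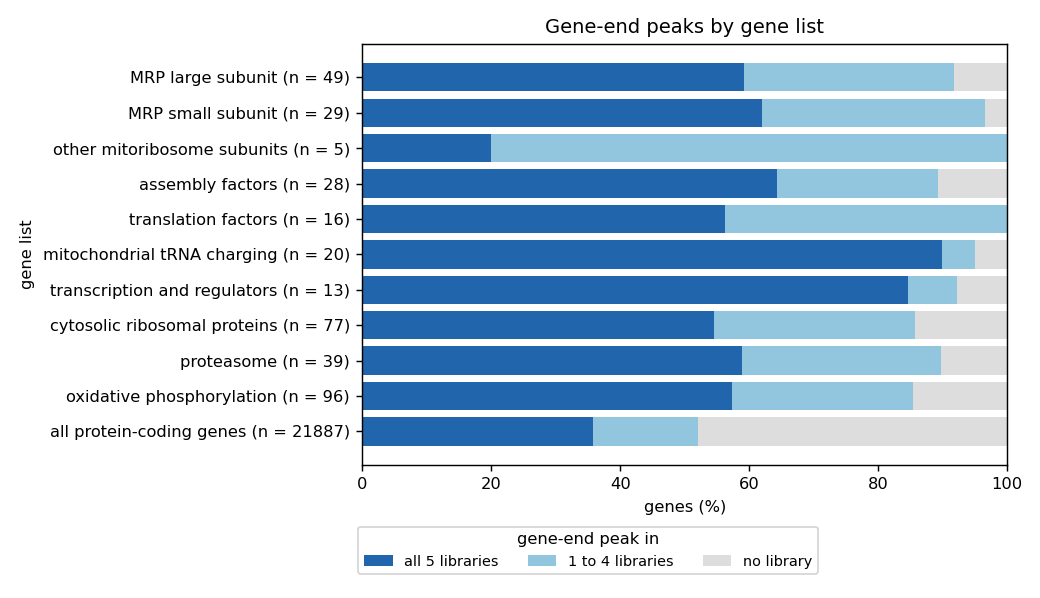
Percent of the genes of each list with a gene-end peak in all 5 libraries (dark), in 1 to 4 libraries (light) and in no library (grey), with list sizes in brackets; MRP stands for mitochondrial ribosomal protein. The large and small subunit genes reach 59.2% and 62.1% in all 5 libraries, the genes of mitochondrial tRNA charging 90.0% and all protein-coding genes 35.7%.

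Genes that charge mitochondrial tRNAs were nearly all marked by a peak. The list of 20 holds 17 aminoacyl-tRNA synthetases and 3 subunits of the glutamyl-tRNA amidotransferase, Gatb, Gatc and Qrsl1. Of the synthetases 15 of 17 (88.2%) were present in all 5 libraries, as were all 3 amidotransferase genes, which gave 18 of 20 (90.0%). Vars2 was present in 4, and Aars2 had no gene-end peak but a start peak in all 5. The highest in their weakest library were Fars2 at 96.4, Lars2 at 86.0, Wars2 at 83.2 and Mars2 at 78.2. Of 13 genes of mitochondrial transcription and its nuclear regulators 11 (84.6%) were present in all 5. They included Tfb2m and Tfam, factors that start transcription of mitochondrial DNA, and the regulator genes Yy1, Gabpa and Nrf1. In their weakest library these genes stood at 96.2, 90.8, 95.1, 72.4 and 10.1. For Nrf1 that was high-glucose replicate 1. Nrf1 had 79.5 and 61.6 in high-glucose replicates 2 and 3, and 66.9 and 85.3 in the normal-glucose libraries. Gabpb1, which encodes the partner subunit of GABPA, had no gene-end peak but had a start peak in 3 libraries. Tefm, a mitochondrial transcription elongation factor, had a peak in both normal-glucose libraries, at percentiles of 28.8 and 35.9, and in no high-glucose library. For comparison, peaks were present in all 5 libraries in 42 of 77 cytosolic ribosomal protein genes (54.5%), 23 of 39 proteasome genes (59.0%) and 55 of 96 oxidative phosphorylation genes (57.3%). These lists were drawn by symbol alone. The last also holds the genes named Ndufaf. Genes such as Cox6b2 and Cox8b there, and Rpl10l and Rpl39l in the cytosolic list, had a gene-end peak in no library. By a peak within 1 kb of a start in all 5 libraries the order was different. The shares were 27 of 58 cytosolic ribosomal protein genes (46.6%), 20 of 32 proteasome genes (62.5%) and 51 of 78 oxidative phosphorylation genes (65.4%). The mitochondrial ribosomal protein genes had 41 of 69 (59.4%) by that measure and 60.3% at gene ends. The differences between these lists and the family were not tested.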

How the data were processed

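ATAC-seq peak lists of 6 libraries were used, each made from 54000 cells and read as 50 bp paired ends, per the labels. The submitters' processing notes name the build mm10 and, without their settings, MACS2 2.1.0, Bowtie 1.0.0, cutadapt 1.0, Picard 1.90, SAMtools 0.1.19, DiffBind 1.12.3 and FastQC. Read shifting and duplicate handling have no description in these sources. As deposited, a list gives each peak's position, summit, score, fold enrichment ratio, and −log10 p-value and q-value, all from the authors' peak caller, and no read counts.

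Lists with at least 1000 peaks entered (3 high-glucose and 2 normal-glucose), and only whether a peak was present was compared. Genes came from RefSeq on GRCm38.p6, and starts, strands and promoters from its promoter table, with the start nearest the gene's 5′ end used for motifs. Gene-end windows were 1 kb either side of both ends. Genes named were the 10 strongest and 5 weakest present in all 5 libraries, all others not present in all 5, and some chosen for their known roles. The members and lists were chosen with earlier results of these data known. Alternatives were lists of 22149 peaks, a −log10 q minimum of 5, windows of 100 bp and 2.5 kb, starts, whole genes, all 6 libraries, each library left out, pairing by replicate number, 1 strand, and motifs from 75 before to 25 after the start. The overlaps were checked on simulated data and with bedtools 2.31.1. Computation used Python 3.11.15 with numpy 2.4.6, pandas 2.3.3 and SciPy 1.17.1, and figures came from matplotlib 3.10.9.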

Additional observations from a re-analysis of the deposited data

How the results depend on the processing

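Presence in all 5 libraries held for 47 genes as reported, for 47 to 50 when any 1 library was left out and for 41 with equal list lengths. It held for 30 with a −log10 q of at least 5, for 31 with 100 bp windows and for 0 with all 6 libraries, since the 66-peak list held no such gene. The number with no gene-end peak was 5 as reported, 5 to 7 with a library left out, 7 with equal list lengths and 8 with a −log10 q of at least 5. It was 0 with 2.5 kb windows, 17 with 100 bp windows, 1 at gene starts and 0 over whole genes. At gene starts 8062 of all 17492 genes with a start had none, and for the other alternatives no share over all genes was worked out. The high-glucose pattern held for 0 genes as reported, for 1 with equal list lengths and for 0 to 3 with a library left out, the 3 without normal-glucose replicate 3. The normal-glucose pattern held for 4 genes as reported and for 4 to 6 with a library left out. It held for 1 with equal list lengths, 2 with 100 bp windows and 0 with all 6 libraries. At gene starts with equal list lengths it held for 1, an alternative added after seeing the data, as was the 300-base promoter. Leaving out a library loosens the pattern for every gene. Its share over all genes was not worked out with a library left out, with 100 bp windows or with all 6 libraries. The difference of high minus normal glucose, -6.84 points as reported, turned to 5.34 with equal list lengths and 20.9 with all 6 libraries, and ran from -14.5 without normal-glucose replicate 1 to 0.855 without normal-glucose replicate 3. With the replicate block, pairing libraries that share a number in the labels, it was -6.41, although nothing in the labels says that a number marks a shared culture or day. The median lowest percentile, 50.4 as reported, was 67.5 with a −log10 q of at least 5, 57.0 with equal list lengths and 50.0 to 58.8 with a library left out, and all 6 libraries gave no value. The median over all genes, 67.0 as reported, was not worked out under these alternatives, so their values cannot be set against it. On the gene strand alone ETS letters were in 21.7%, NFY in 17.4% and SP1 in 24.6% of the family's promoters. The shares of all promoters were 6.57%, 22.7% and 30.4%, so the family's SP1 share was then the lower. From 75 bases before to 25 after the start, YY1 letters were in 10.1%, NFY in 15.9%, SP1 in 31.9%, E-box in 2.90%, AP-1 in 0%, TATA in 1.45% and THAP11 in 2.90%. In the same order the shares of all promoters were 1.84%, 18.8%, 33.0%, 3.67%, 1.46%, 5.90% and 1.55%. Shorter windows hold fewer letters, and the causes of the other shifts were not tested. Counts of absent peaks may depend on list length, since a longer list reaches weaker sites. Depth in reads is unknown, and its bearing on these counts was not tested.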
